A study of Arabidopsis thaliana with 4 samples.

Results

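The genes for 10 amino acid transporters that load developing seeds were followed in seeds of Arabidopsis thaliana: the exporter genes UMAMIT11, UMAMIT14, UMAMIT18, UMAMIT24, UMAMIT25, UMAMIT28 and UMAMIT29 and the importer genes AAP1, AAP2 and AAP8. They were chosen by locus identifier, and all 10 are among the 33187 rows of the deposited table. RNA came from whole seeds 7 days post anthesis, with embryos at the torpedo to linear stage. The wild type and the T-DNA insertion line SALK_073394 of ERF4, which the sample titles name erf4_2 and the genotype labels erf4, gave 2 libraries each. Whether both libraries of one genotype represent separate plants is not in the labels, and the p-values therefore cover only library-to-library spread, possibly technical. The comparison asks how these transporter transcripts differ between the genotypes.

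The embryo has no vascular connection to the mother plant. Amino acids arrive in the phloem of the funiculus, leave the seed coat by export into the space around the endosperm, and are taken up again by the endosperm and the embryo, where they are built into storage protein. UMAMIT proteins (usually multiple acids move in and out transporters) are facilitators of low selectivity that let amino acids out of cells, while AAP proteins (amino acid permeases) take amino acids up together with protons. In whole seeds, fewer cells of a type and less RNA per cell cannot be told apart.

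Values are TPM, a length-corrected share of all transcripts in a library, so levels can be compared between genes. The reads behind each value are unknown. ERF4 (AT3G15210), an ethylene response factor that represses transcription, stood at 38.0 and 33.0 TPM in wild-type seeds and at 34.6 and 41.3 TPM in those labelled erf4. Its transcript therefore does not check the labels, and a higher or lower value always means the libraries labelled erf4 set against the wild type. One library stood apart in storage protein transcripts. The summed TPM of 9 storage protein genes was 29944 and 15618 in wild-type seeds and 33615 in erf4 replicate 1, against 864 in erf4 replicate 2. Where a difference of the transporters followed here rests on that library, it is also given without it. Differences of other genes are given with all libraries only. Markers of embryo (L1L, FUS3), endosperm (EPR1), seed coat (BAN, TT10) and phloem (SUC2) were at 61.5 TPM or more in every library. Other markers of the same lists were low: WOX2 and DRN of the embryo stayed at or below 0.38 TPM, and APL and SEOR1 of the phloem at or below 5.36 TPM. In the seed coat list TT12 stayed at or below 5.43 TPM and TT16 at or below 13.24 TPM, and in the endosperm list FIS2 at or below 2.66 TPM.

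Several members have a close gene outside the 10, and for UMAMIT28 that gene is nearly as abundant as the member itself. In the RefSeq annotation of TAIR10.1, in which all 10 loci matched, the UMAMIT members have 6 or 7 coding exons and coding lengths of 1068 to 1185 bases, and the AAP members have 6 coding exons and 1431 to 1482 bases. Aligned from end to end, UMAMIT28 and UMAMIT29 share 74.3% of their coding bases, and AAP1 and AAP8 share 76.3%, the highest values within each family among the members. By the best local alignment with any other coding sequence, AAP2 is 82.4% identical to AAP4 over 1389 bases, UMAMIT18 is 78.4% identical to UMAMIT17 over 1019 bases and UMAMIT11 is 78.0% identical to UMAMIT10 over 965 bases. Identity is lower for UMAMIT24 with UMAMIT23 (70.4% over 1057 bases) and for UMAMIT14 with UMAMIT12 (68.8% over 398 bases). UMAMIT23 and UMAMIT12 had a higher mean TPM than these members (42.0 against 4.05 TPM and 120 against 27.8 TPM). The highest identity is that of UMAMIT28 with UMAMIT27 (AT1G11450). Their alignment covers 1057 bases at 85.4% identity, and the longest run of identical bases is 63, from base 73 to base 135 of the UMAMIT28 coding sequence. That run is shown because a read that lies wholly within it matches both genes. Reads longer than the run cannot lie wholly within it, and read length was not considered here.
UMAMIT28 and UMAMIT27, chromosome 1: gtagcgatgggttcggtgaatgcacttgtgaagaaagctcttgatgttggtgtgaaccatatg
For the other members with a close gene, the longest shared run was 14 to 26 bases, and UMAMIT25 had no other coding sequence matching it at the limit used.

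The promoters were searched for the letters that ERF proteins and regulators of seed maturation are known to bind, on both strands of the 250 bases before each annotated start. None of the 10 windows held GCCGCC, the core of the GCC box bound by ERF proteins (1.87% of 27443 promoters), and none held its longer form AGCCGCC (0.587%). None held ACCGAC (4.70%) or GCCGAC (2.56%) of the dehydration-responsive element, CACGTG (6.49%), the G-box, TGAGTCA (2.83%) or TGTAAAG (4.53%); the last pair is known from storage protein promoters of cereals. CATGCA, the RY element of seed promoters, was in 2 of 10 windows against 8.43% of all promoters, in UMAMIT18 at 145 bases and, on the opposite strand and so printed as TGCATG, in UMAMIT25 at 11 bases before the start. AGCCGCC contains GCCGCC, so these counts overlap. The absence of a match says only that these letters are not in these windows. The windows of the 4 members whose 95% interval for the difference between genotypes did not include 0 are shown, 5′ to 3′ on the strand of the gene and ending at the base before the start, with the matching letters in capitals (only UMAMIT25 holds any).
UMAMIT25, chromosome 1, minus strand, TAIR10.1: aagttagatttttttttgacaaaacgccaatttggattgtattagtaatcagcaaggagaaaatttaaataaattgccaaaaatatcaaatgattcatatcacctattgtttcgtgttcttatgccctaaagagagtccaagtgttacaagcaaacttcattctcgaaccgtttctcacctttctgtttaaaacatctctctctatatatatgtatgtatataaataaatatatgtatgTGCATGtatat
UMAMIT28, chromosome 1, minus strand, TAIR10.1: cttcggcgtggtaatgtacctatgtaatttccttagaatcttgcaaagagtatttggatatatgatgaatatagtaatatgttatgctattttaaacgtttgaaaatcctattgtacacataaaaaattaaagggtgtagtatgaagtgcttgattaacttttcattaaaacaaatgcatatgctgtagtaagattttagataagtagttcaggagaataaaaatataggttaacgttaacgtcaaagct
UMAMIT14, chromosome 2, minus strand, TAIR10.1: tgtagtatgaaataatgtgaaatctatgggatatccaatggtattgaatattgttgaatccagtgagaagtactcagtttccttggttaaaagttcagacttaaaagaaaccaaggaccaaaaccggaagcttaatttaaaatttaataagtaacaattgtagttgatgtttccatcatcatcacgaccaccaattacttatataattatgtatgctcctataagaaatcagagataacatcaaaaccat
AAP1, chromosome 1, plus strand, TAIR10.1: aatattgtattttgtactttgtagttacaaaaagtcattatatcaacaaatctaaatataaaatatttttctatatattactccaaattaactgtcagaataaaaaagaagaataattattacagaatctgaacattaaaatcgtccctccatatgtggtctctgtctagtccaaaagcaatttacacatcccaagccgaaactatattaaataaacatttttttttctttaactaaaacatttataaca

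The 10 transcripts differed widely in level. UMAMIT25 was the most abundant, with a mean of 245 TPM over the 4 libraries (164 to 336 TPM), and ranked first of the 46 UMAMIT genes in the table. It alone held 21.0% and 23.6% of all UMAMIT TPM in wild-type seeds and 16.0% and 17.6% in the libraries labelled erf4. AAP2 (mean 103 TPM), AAP1 (85.3 TPM) and UMAMIT29 (79.8 TPM) followed, and the library values of neighbours in that order overlapped. UMAMIT18 (38.7 TPM) and UMAMIT14 (27.8 TPM) overlapped each other and lay below UMAMIT29 in every library. UMAMIT11 (11.0 TPM), UMAMIT28 (9.51 TPM) and UMAMIT24 (4.05 TPM) formed a lower group in which neighbours overlapped, and AAP8 (0.535 TPM) lay below all others in every library.

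**Figure D1:**
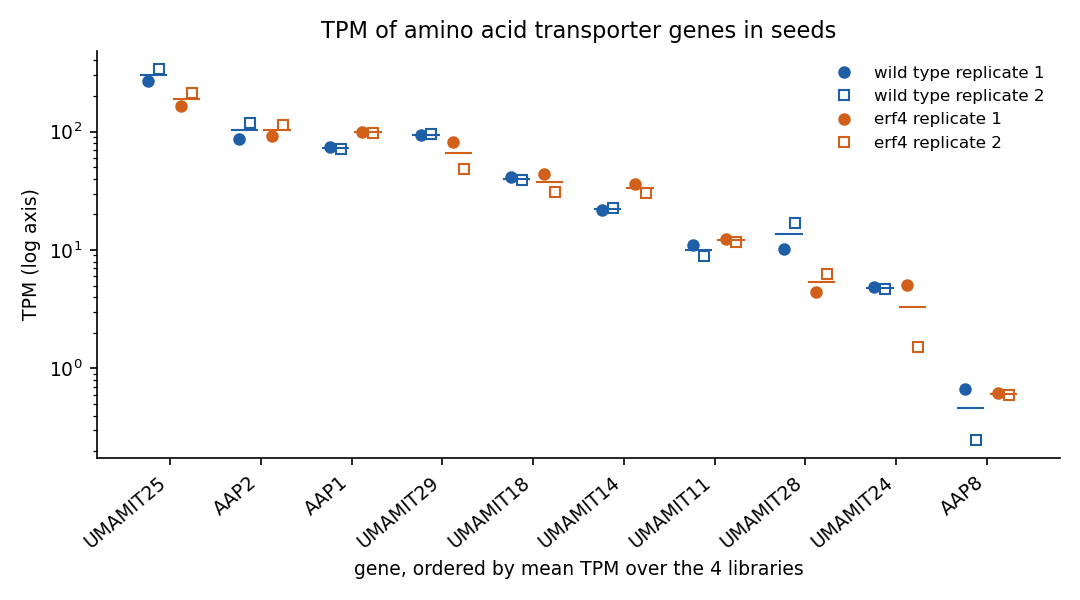
TPM on a log axis for each of the 10 genes in 2 wild-type libraries (blue) and 2 libraries labelled erf4 (orange), with circles for replicate 1, squares for replicate 2 and bars for the genotype means. UMAMIT25 is the highest in every library and AAP8 the lowest, and UMAMIT25, UMAMIT28 and UMAMIT29 are lower in both libraries labelled erf4.

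Exporters of the endosperm had lower values in the libraries labelled erf4. UMAMIT25 (AT1G09380), a plasma membrane exporter described in the endosperm, had 270 and 336 TPM in wild-type seeds against 164 and 212 TPM. Both libraries labelled erf4 lay below both wild-type libraries, and the mean was 0.621 times that of the wild type (303 ± 47.0 against 188 ± 33.6 TPM, SD, n = 2). Its log2 fold change, on the log2(TPM + 1) scale, came to -0.69 (SE 0.20, 95% confidence interval -1.20 to -0.18), with a limma adjusted p = 0.561 over all tested genes, where a gene is called under 0.05. UMAMIT28 (AT1G01070), also described in the endosperm, had 10.2 and 17.1 TPM against 4.40 and 6.32 TPM. The groups did not overlap here either, the means differing 2.55-fold (13.7 ± 4.84 against 5.36 ± 1.36 TPM, SD, n = 2), with a log2 fold change of -1.18 (SE 0.31, 95% confidence interval -1.97 to -0.39, limma adjusted p = 0.548). UMAMIT27, with which it shares the run above, had 9.95 and 13.6 TPM against 5.01 and 9.44 TPM. Its groups did not overlap, but the nearest libraries were close and the interval included 0 (log2 fold change -0.67, SE 0.33, 95% confidence interval -1.51 to 0.16, limma adjusted p = 0.821). How reads were divided between UMAMIT27 and UMAMIT28 was not tested.

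Of the 11 endosperm markers, 8 passed the filter on low values. Among those, both libraries labelled erf4 lay above the wild-type values for 4 markers and below them for 1, against 21.5% above and 12.2% below among all tested genes. The summed TPM of all 11, most of it from EPR1, was 1627 and 1291 in wild-type seeds and 873 and 774 in the libraries labelled erf4, while PHE1 had 2.51 and 2.18 TPM against 8.07 and 6.06 TPM. AGL62, IKU2 and MINI3, which act in the early endosperm, were at or below 0.43 TPM in every library. The part of endosperm amount or stage in the values of UMAMIT25 and UMAMIT28 was not tested.

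Exporters of the seed coat were lower on average, but by an amount that rested on 1 library. UMAMIT29 (AT4G01430), described in the seed coat, had 92.9 and 95.6 TPM in wild-type seeds against 82.4 and 48.6 TPM. Both libraries labelled erf4 lay below the wild-type values, one of them by little (log2 fold change -0.57, SE 0.27, 95% confidence interval -1.24 to 0.11, limma adjusted p = 0.797). Without erf4 replicate 2 the log2 fold change was -0.19, and without erf4 replicate 1 it was -0.94. UMAMIT24 (AT1G25270), described in the chalazal seed coat, had 4.92 and 4.66 TPM against 5.11 and 1.52 TPM. The groups overlapped, since erf4 replicate 1 was the highest and erf4 replicate 2 the lowest of the 4 libraries. Its log2 fold change of -0.56 (SE 0.45, limma adjusted p = 0.992) became 0.08 without erf4 replicate 2 and -1.20 without erf4 replicate 1. Of the 9 seed coat markers, 4 lay above and 1 lay below the wild-type values (21.5% and 12.2% of all tested genes), with summed levels of 1461 and 1327 TPM against 1774 and 1715 TPM. Their part in the values of UMAMIT29 and UMAMIT24 was not tested.

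Exporters of the vascular unloading zone had higher or overlapping values. UMAMIT14 (AT2G39510), which acts where phloem amino acids are unloaded, had 21.9 and 22.6 TPM in wild-type seeds against 36.4 and 30.4 TPM. Both libraries labelled erf4 were above both wild-type libraries, and the means were 22.3 ± 0.544 and 33.4 ± 4.25 TPM (SD, n = 2; log2 fold change 0.56, SE 0.16, 95% confidence interval 0.15 to 0.97, limma adjusted p = 0.560). UMAMIT11 (AT2G40900), an exporter of the same zone whose loss leaves amino acids in the fruit, had 11.1 and 8.88 TPM against 12.4 and 11.8 TPM. The gap between the groups was small (log2 fold change 0.26, SE 0.20, limma adjusted p = 0.982), and the groups overlapped after median-of-ratios or quantile rescaling of the libraries. With wild type replicate 2 left out the log2 fold change was 0.11, and with replicate 1 left out instead it was 0.40. UMAMIT18 (AT1G44800, also called SIAR1), an exporter that supplies siliques with organic nitrogen, had 41.0 and 39.2 TPM against 44.1 and 30.7 TPM, so the groups overlapped. Its log2 fold change was -0.12 (SE 0.21, limma adjusted p = 1), and 0.14 without erf4 replicate 2.

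Of the 8 vascular markers, 7 passed the filter, 1 of them above and 1 below the wild-type values, which is near the shares of all tested genes, and the summed level of all 8 was 146 and 160 TPM in wild-type seeds against 129 and 152 TPM. SUC2, the sucrose carrier of phloem companion cells, had 83.5 and 105 TPM against 61.5 and 89.9 TPM. Of the 8 silique wall and leaf markers, 7 lay above and 1 lay below the wild-type values (21.5% and 12.2% of all tested genes), with summed levels of 711 and 676 TPM against 868 and 872 TPM. Their part in the values of UMAMIT14 and UMAMIT11 was not tested.

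Among the importers, AAP1 alone did not overlap between genotypes. It lay above the wild-type values in both libraries labelled erf4, as did 21.5% of all tested genes. AAP1 (AT1G58360), which takes amino acids up into the embryo, had 73.8 and 70.7 TPM in wild-type seeds against 99.4 and 97.3 TPM. Replicates lay within a few TPM of each other, and the mean was 1.36 times that of the wild type (72.2 ± 2.15 against 98.3 ± 1.53 TPM, SD, n = 2). The log2 fold change of AAP1 came to 0.44 (SE 0.13, 95% confidence interval 0.11 to 0.77, limma adjusted p = 0.562), and 0.41 to 0.47 with any 1 library left out. AAP2 (AT5G09220), a permease of the phloem that moves amino acids from xylem to phloem, had 87.3 and 118 TPM against 91.8 and 114 TPM. The replicates of each genotype differed more than the genotypes did (log2 fold change 0.01, SE 0.21, 95% confidence interval -0.52 to 0.55, limma adjusted p = 1). AAP8 (AT1G10010), which takes up acidic amino acids in young seeds, had 0.67 and 0.25 TPM against 0.62 and 0.60 TPM and did not pass the filter of at least 1 TPM in at least 2 libraries. Of the 5 embryo markers that passed it, L1L, FUS3 and ABI3 lay below the wild-type values and LEC1 and WOX8 above them. Over all tested genes, 12.2% lay below and 21.5% above. The summed TPM of all 7 markers was 466 and 518 against 329 and 424. Their part in the values of AAP1 was not tested.

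**Figure D2:**
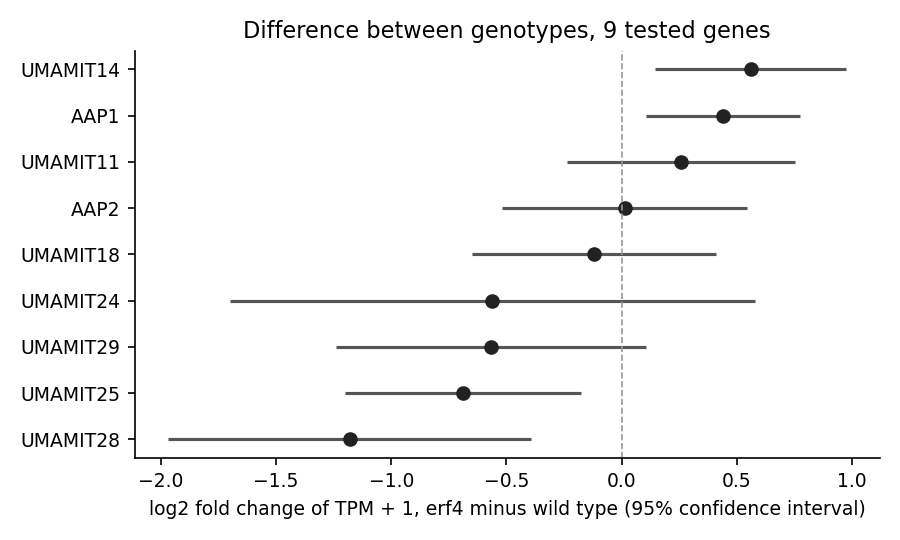
Log2 fold change on the TPM + 1 scale, erf4 minus wild type, for the 9 tested genes, with points for the limma estimate and lines for the 95% confidence interval, which is not adjusted for the number of genes. The intervals of UMAMIT14 and AAP1 lie above 0 and those of UMAMIT25 and UMAMIT28 below it.

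None of the 9 tested members was called at a limma adjusted p under 0.05, and neither was any of the 20804 tested genes (0% called; 1452 had an unadjusted limma p under 0.05). Of the members, 4 of 9 (UMAMIT14, UMAMIT25, UMAMIT28 and AAP1) had such an unadjusted p, against 6.98% of all tested genes. Of the 9, 3 lay above the wild-type values in both libraries labelled erf4, as did 21.5% of all tested genes, and 3 lay below them, as did 12.2%. These 9 passed the filter and are not all members, and they were picked for this account with results of the same libraries known. Their log2 fold changes ran from -1.18 to 0.56 with a median of -0.12, against a median of 0.03 over all tested genes.

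The sums over the members of each family rest on few genes. The summed TPM of the 7 UMAMIT members was 452 and 524 in wild-type seeds and 349 and 341 in the libraries labelled erf4, a sum of which UMAMIT25 is the largest part; UMAMIT14 and UMAMIT11 had higher values. That of the 3 AAP members was 162 and 189 against 192 and 212, so the nearest libraries differed by little. Of the 3 genes AAP1 alone did not overlap between genotypes, while 21.5% of all tested genes lay above the wild-type values and 12.2% below them. The ratio of AAP1 to UMAMIT25, which a scaling factor per library leaves as it is, was 0.274 and 0.210 in wild-type seeds and 0.606 and 0.459 in the libraries labelled erf4. The ratio of UMAMIT14 to UMAMIT25 was 0.0811 and 0.0674 against 0.222 and 0.144. These ratios were chosen after the values were seen and are given without a test. The smallest p that an exact two-sided permutation test can give with 2 libraries per genotype is 0.333.

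**Figure D3:**
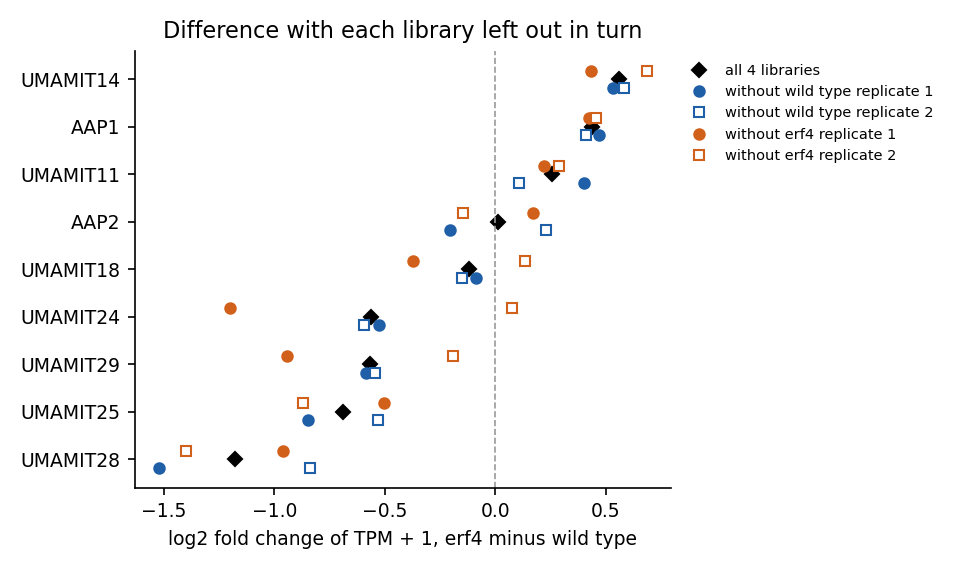
Log2 fold change on the TPM + 1 scale, erf4 minus wild type, for the 9 tested genes with all 4 libraries (black diamonds) and with each library left out in turn (blue for a wild-type and orange for an erf4 library, circles for replicate 1 and squares for replicate 2). UMAMIT25, UMAMIT28 and UMAMIT29 stay below 0 and UMAMIT14, UMAMIT11 and AAP1 above 0, while UMAMIT18, UMAMIT24 and AAP2 cross it. Genes whose groups do not overlap cannot cross 0 when a library is left out.

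Negative log2 fold changes outnumbered positive ones in the rest of the UMAMIT family. The list holds 45 other loci whose RefSeq entry names UMAMIT, nodulin MtN21 or WAT1, of which 44 were in the table and 33 were tested. None was called, 12 were positive and 21 negative in log2 fold change (55.9% of all tested genes were positive), 4 lay above the wild-type values and 9 below them (21.5% and 12.2% of all tested genes). Their median log2 fold change was -0.16. Of the 45 loci, 40 carry a UMAMIT symbol, and the 39 of these in the table make up the 46 UMAMIT genes above together with the 7 members. Of those 39, 29 were tested, with 3 above and 9 below the wild-type values and a median of -0.17. UMAMIT38 (AT4G15540), UMAMIT41 (AT3G28050), UMAMIT12 (AT2G37460) and UMAMIT8 (AT4G16620) had the highest mean TPM. UMAMIT12 had 145 and 142 TPM in wild-type seeds against 96.5 and 98.0 TPM, with close replicates (log2 fold change -0.56, SE 0.13, limma adjusted p = 0.489). For UMAMIT38, UMAMIT41 and UMAMIT8 the log2 fold changes were -0.20, -0.02 and -0.16, with overlapping groups. The highest and lowest log2 fold changes were those of UMAMIT15 (AT5G13670), with 62.4 and 44.6 TPM against 79.9 and 65.1 TPM, and of UMAMIT33 (AT4G28040), with 3.31 and 7.52 TPM against 0.86 and 3.28 TPM.

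None of the other amino acid carriers tested was called. All 5 other AAP genes overlapped between genotypes, from AAP7 (AT5G23810) at a log2 fold change of -0.20 to AAP3 (AT1G77380) at 0.30, with AAP5 (AT1G44100) the most abundant of them. Over all tested genes, 21.5% lay above and 12.2% below the wild-type values. Among cationic amino acid transporters and BAT1, 1 of 9 tested genes lay above the wild-type values and none below them, with log2 fold changes from -0.18 (CAT5, AT2G34960) to 0.16 (CAT6, AT5G04770). Among lysine and histidine transporters, proline transporters, AT1G08230 and ANT1, 2 of 7 lay below and none above. The proline transporter gene PROT1 (AT2G39890) had 42.2 and 38.5 TPM against 35.1 and 31.8 TPM, and PROT3 (AT2G36590) had 1.62 and 2.69 TPM against 7.38 and 2.17 TPM, high in 1 library. A list of 7 further loci of transmembrane amino acid transporters had 6 tested members, 2 of them above and none below the wild-type values. The most abundant was AT3G30390, with 105 and 109 TPM against 113 and 120 TPM, and the log2 fold changes ran from 0.02 (AT2G42005) to 0.35 (AT4G38250).

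With genotype alone in the fit, genes of glutamine export, peptide transport and glutamine synthesis were not called either, although several did not overlap between genotypes. GDU5 (AT5G24920), of the family of glutamine dumper proteins that promote amino acid export, had 19.0 and 21.4 TPM in wild-type seeds against 9.14 and 7.05 TPM (log2 fold change -1.23, SE 0.20, limma adjusted p = 0.407). GDU3 (AT5G57685), the most abundant of that family, had 84.0 and 93.4 TPM against 122 and 97.7 TPM. Of 5 tested genes of that family, 2 lay above and 2 below the wild-type values, against the same shares. Of 13 tested peptide and nitrate transporters, 6 lay above the wild-type values and none below them (21.5% and 12.2% of all tested genes), with a median log2 fold change of 0.13. OPT5 (AT4G26590), an oligopeptide transporter gene, had 72.6 and 70.1 TPM against 135 and 123 TPM (log2 fold change 0.84, SE 0.14, limma adjusted p = 0.407), and PTR3 (AT5G46050) stood at -0.005.

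Of 17 genes for enzymes of glutamine, glutamate, asparagine and alanine, all tested, 8 lay above and 3 below the wild-type values, against 21.5% and 12.2% of all tested genes, with a median log2 fold change of 0.17. The cytosolic glutamine synthetase genes differed in direction. GLN1;1 (AT5G37600) had 281 and 271 TPM in wild-type seeds against 418 and 428 TPM (log2 fold change 0.61, SE 0.14, limma adjusted p = 0.489). GLN1;4 (AT5G16570) had 11.3 and 7.39 TPM against 19.5 and 21.9 TPM, and GLN1;5 (AT1G48470) had 35.5 and 30.3 TPM against 21.2 and 9.80 TPM. For these 3 genes the genotypes did not overlap. GLN1;2 (AT1G66200) had 303 and 320 TPM against 270 and 320 TPM, and its groups overlapped. GLN1;3 (AT3G17820) had 99.0 and 99.8 TPM against 81.5 and 96.4 TPM, lower in both libraries labelled erf4.

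**Figure D4:**
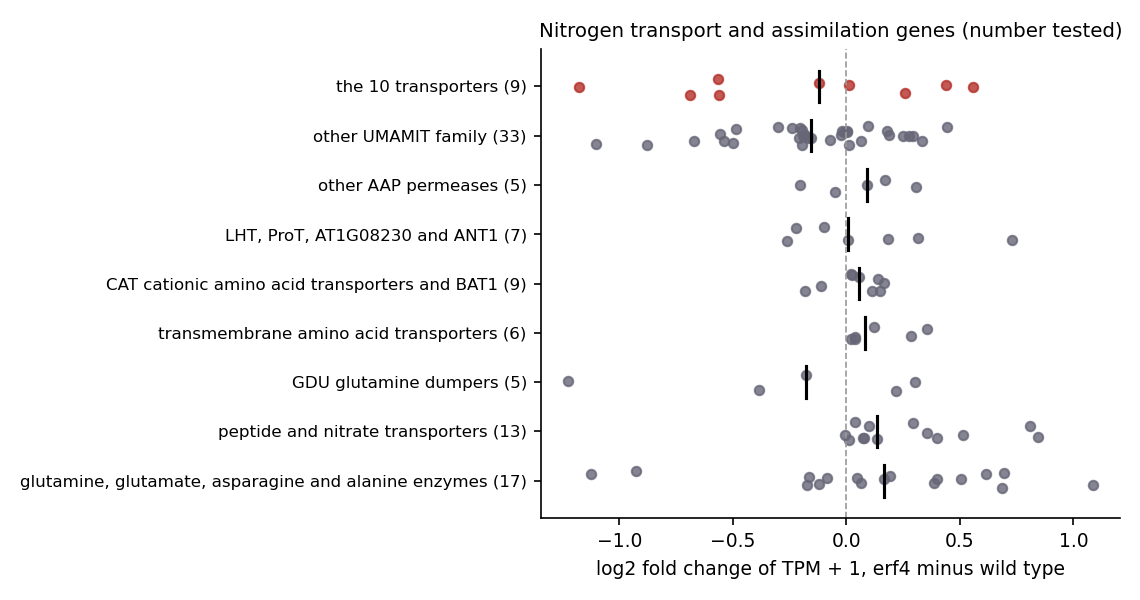
Log2 fold change on the TPM + 1 scale, erf4 minus wild type, of each tested gene (points) and the median (black bars) for the 10 transporters (red, 9 tested) and 8 lists of other nitrogen transport and assimilation genes (grey). The medians run from -0.18 for the glutamine dumper genes to 0.17 for the enzyme genes.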

How the data were processed

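The authors deposited gene expression as TPM rounded to 2 decimals. Per the submitters' processing notes, the tools included fastp, HISAT and RSEM, with no version given. Genome build: not given in the sources used here. Deposited genotype means in TPM entered no test. An exact 0 may be a failed estimate. Of 33187 identifiers, 98.1% matched a locus of RefSeq TAIR10.1, which gave names, coding sequences and promoters (Biopython 1.88, blastn 2.17.0). No genome coordinates are given because the build is not named. Because no protein table was used, identities are of coding sequences.

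Genes with at least 1 TPM in at least 2 libraries entered a two-sided limma test (limma 3.58.1, R 4.3.3) of genotype alone on log2(TPM + 1), with a trend in the variance prior, and p-values were adjusted by the Benjamini-Hochberg method over all of them. The log2 fold change estimates of the test were checked on simulated data, and its calls were not judged by that check. Alternatives were the pseudocount (0.1, 5), the filter, 2 rescalings, the variance model, the threshold, the replicate number as a term and leaving out each library. Members and lists were chosen with earlier results of these data known. Named beside the 10 members are ERF4, and in each list the most abundant gene and the highest and lowest log2 fold change (for the UMAMIT family the 4 most abundant). UMAMIT27 and the single markers named were picked after their values were seen.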

Additional observations from a re-analysis of the deposited data

How the results depend on the processing

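The replicate numbers come from the sample titles and are not stated to mark a shared batch. Replicate differences correlated at 0.35 between the genotypes over the tested genes, in 2 pairs. With the replicate block limma called 1083 genes (5.21% of those tested) and 2 of 9 members, UMAMIT25 (log2 fold change -0.69, adjusted p = 0.00575) and UMAMIT28 (-1.18, adjusted p = 0.0109). Of the other carriers and enzymes named, it called UMAMIT12 (adjusted p = 0.0265), UMAMIT33 (0.0361), GDU5 (0.00578), OPT5 (0.00251), GLN1;1 (0.0110), GLN1;4 (0.0143) and GLN1;5 (0.00780). Of the markers named, it called L1L, FUS3, LEC1, PHE1, EPR1, BAN and XCP2. Leaving out 1 library in turn gave 0 to 8 called genes (7 without wild type replicate 1, 8 without wild type replicate 2) and no called member. Such fits assume that the lone library varies like the others. An adjusted p under 0.1 as the threshold called 0 genes. Over the left-out libraries, members above the wild-type range numbered 3 to 5 (5 without erf4 replicate 2) and below it 3 to 5 (5 without erf4 replicate 1), with no test. After either rescaling 2 lay above it. Groups separate more easily when 1 of them holds 1 library. The shares of 21.5% and 12.2% of all tested genes are for the 4 libraries without rescaling. No such share is given for these settings, so these counts cannot set the members apart from other genes. The direction turned for AAP2 under median-of-ratios (-0.023) and quantile rescaling (-0.042) and, over the left-out libraries, between -0.20 and 0.23; for UMAMIT18 between -0.37 and 0.14; and for UMAMIT24 between -1.20 and 0.078. The median of the members ran from -0.37 to 0.08. With no filter AAP8 had a log2 fold change of 0.16 (adjusted p = 0.976). Directions of UMAMIT11, UMAMIT14, UMAMIT25, UMAMIT28, UMAMIT29 and AAP1 were kept in all 12 alternatives. The groups of these members did not overlap, so leaving out a library or changing the pseudocount could not turn them. The filter, the variance model and the replicate term leave the log2 fold change as it is. Only the 2 rescalings could have turned a direction. The cause of the shifts between alternatives was not tested. Depth is unknown, so the precision of the low values of AAP8 and UMAMIT24 is too.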

Other observations

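For 8 of 10 members the replicates of both genotypes differed in the same direction, as did those of 60.6% of all tested genes. The exceptions were UMAMIT14 and UMAMIT29. UMAMIT29, UMAMIT24 and UMAMIT18 had their lowest value in erf4 replicate 2, the library with the low storage protein transcripts, while AAP1 had close replicates in either genotype. Whether these values share a cause was not tested.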
